A study of Mus musculus with 34 samples.

Results

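Divergent promoters are stretches of DNA from which 2 genes are transcribed outwards on opposite strands. The members described here are 377 pairs of protein-coding genes on chromosomes 1 to 19 of the mouse genome (build mm39) whose 5′ ends point away from each other and lie at most 1000 bp apart, so that 754 of the 20621 protein-coding genes on these chromosomes belong to a pair. Each region ran from 500 bp beyond one start to 500 bp beyond the other, and the start of a gene was its outermost annotated 5′ end in the GENCODE annotation. The pairs were compared with 14072 single promoters, 500 bp on either side of a protein-coding start with no other annotated gene start within 1000 bp, and with 1320 promoters that shared their upstream side with the start of a long non-coding RNA (lncRNA) and with no other protein-coding gene.

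Chromatin accessibility had been measured by ATAC-seq, in which the transposase Tn5 inserts adapters into open DNA, in hair follicle stem cells (HFSCs), the cells of the outer root sheath that renew the hair follicle. Of the 34 libraries, 15 were sorted from mouse skin. Wild type HFSCs were taken at full growth (AnaVI, n = 2) and at late regression (CatVII, n = 6). CatVII HFSCs also came from 4 Rxra WT and 3 Rxra cKO libraries, Rxra being the gene of the nuclear receptor RXRα and cKO its removal by a conditional allele. The other 19 came from cultured HFSC lines, all carrying Sox9-creER and a YFP reporter. Both genotypes were kept in medium alone (n = 2 each), given apoptotic corpses of HFSCs killed with cisplatin (4 Rxra WT and 3 Rxra cKO libraries), or given a mix of a fatty acid, a lysolipid and 2 retinoids, labelled AA, LPC and RA (n = 2 each). Rxra WT cells also received corpses whose calcium-independent phospholipase A2 had been blocked with bromoenol lactone, labelled BEL-treated corpses (n = 4). In vivo, tamoxifen activated Sox9-creER, and the study's description of the sort gives both the Rxra WT and the Rxra cKO mice as carriers of the Cre driver and a YFP allele, with YFP-positive cells collected. The peak lists do not measure Rxra transcript, so the deletion was not checked here. Each culture genotype was a derived line, and the labels do not say whether replicates were separate cultures. The p-values therefore measure the spread between these libraries or their group means, which may be technical.

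The peak lists held between 4144 and 129876 peaks, with the 4 medium libraries at the short end. They give no read counts, so sequencing depth is unknown and the measure is the presence of a called peak. Groups follow the sample titles, and the peak names stored inside some lists go against them. CatVII Rxra WT replicates 2 to 4 are stored under the age tag and series of the wild type CatVII lists, Rxra cKO medium replicates 1 and 2 under other numbers, and CatVII Rxra cKO replicate 3 under the same mouse tag as replicate 2, so these last 2 may share an animal. The stored names also tag lists as Phago or NonPhago, which the titles do not, and several groups hold both tags. The part of these tags in the results was not tested. At the outermost annotated start, promoters of 11 HFSC and keratinocyte markers carried a peak at between 0 and 9 genes in a library (median 6.0). Sox9 had a peak in 29 libraries, Tcf7l1 in 28, Krt5 in 25, Krt15 in 24, Krt14 in 22 and Lgr5 in 20, while the stem cell markers Nfatc1, Lhx2 and Cd34 had one in 12, 9 and 7. At the start of the canonical transcript, Itga6 and Trp63 went from 0 to 31 and 24 libraries, Lhx2 to 23 and Nfatc1 to 17, and Cd34 stayed at 7. Of 6 fibroblast, 6 leukocyte, 5 endothelial and 6 melanocyte markers, at most 2, 2, 2 and 3 carried a peak in any library. Ptprc, Cd3e, Itgam, Col1a1, Lum, Cdh5, Emcn, Tyr, Sox10 and Mlana were at 0 of 34 at both kinds of start. Others of these lists did carry peaks at the outermost start, among them Mitf in 28 libraries, Cd68 in 21, Pmel and Tek in 20, Csf1r in 14, Dct in 9 and Pecam1 in 7, and at the canonical start Pmel and Pecam1 had none. Their part in the results was not tested.

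Many divergent pairs in mammals join a gene of a basic cell process, such as DNA repair, replication, protein folding or respiration, to a second gene that may have nothing to do with it. Their promoters tend to be rich in CpG dinucleotides, which escape methylation in most tissues, and to lack a TATA box. Transcription starts from separate initiation sites on the 2 strands within a shared nucleosome-depleted region, which is the kind of DNA that ATAC-seq reads as open.

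The DNA between the 2 starts was short, with a median gap of 83 bp (quartiles 36 and 183 bp, range 1 to 984 bp). The stretches below, read from the mm39 assembly on the plus strand, show pairs that differ in how widely they were open. The first 4 carried a peak in all 34 libraries. Capitals mark a match on either strand to one of 10 short motifs whose letters are given with their shares below, such as NF-Y, ETS, SP/KLF and NRF1, and a match describes the letters and not a bound factor.

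Zfp654/Cggbp1, chr16:64672131-64672280: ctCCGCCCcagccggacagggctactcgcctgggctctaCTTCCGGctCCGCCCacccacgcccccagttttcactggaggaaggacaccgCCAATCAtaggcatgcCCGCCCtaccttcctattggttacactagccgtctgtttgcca
Tbccd1/Dnajb11, chr16:22676466-22676586: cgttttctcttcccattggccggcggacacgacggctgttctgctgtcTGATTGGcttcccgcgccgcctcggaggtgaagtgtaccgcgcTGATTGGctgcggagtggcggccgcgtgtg
Hspa14/Cdnf, chr2:3513998-3514066: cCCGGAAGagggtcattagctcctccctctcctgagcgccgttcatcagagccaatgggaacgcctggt
Pdcd10/Serpini1, chr3:75464749-75464799: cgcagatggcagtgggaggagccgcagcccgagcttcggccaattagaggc

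Next come the pair of the proteasome subunit gene Psmb1 with the TATA-binding protein gene Tbp, the pair that holds Rxrb, a paralogue of the deleted receptor, and 2 pairs that were open in fewer than all libraries, shown because the comparisons between groups name them.

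Psmb1/Tbp, chr17:15720014-15720149: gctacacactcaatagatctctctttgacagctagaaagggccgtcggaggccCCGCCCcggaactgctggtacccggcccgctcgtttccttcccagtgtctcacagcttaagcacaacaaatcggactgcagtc
Slc39a7/Rxrb, chr17:34250657-34250758: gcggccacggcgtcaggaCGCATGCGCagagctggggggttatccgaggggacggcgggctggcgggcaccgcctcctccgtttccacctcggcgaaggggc
Ddx24/Ifi27, chr12:103392160-103392253: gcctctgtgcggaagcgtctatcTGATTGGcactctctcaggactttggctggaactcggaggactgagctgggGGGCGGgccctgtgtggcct
Apaf1/Ikbip, chr10:90918687-90918727: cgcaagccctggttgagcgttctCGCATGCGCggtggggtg

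The last 4 carried a peak in no library.

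Nmur1/Tex44, chr1:86353951-86354050: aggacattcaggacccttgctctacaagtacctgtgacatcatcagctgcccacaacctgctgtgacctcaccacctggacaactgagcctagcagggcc
Ctnnd1/Btbd18, chr2:84489327-84489357: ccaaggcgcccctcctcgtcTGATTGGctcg
Patl2/Terb2, chr2:122016690-122016727: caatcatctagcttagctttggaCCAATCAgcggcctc
Actl7b/Actl7a, chr4:56741444-56741493: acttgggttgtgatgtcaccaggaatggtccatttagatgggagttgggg

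Divergent pairs carried called peaks far more often than single promoters in every library. Averaged over the 11 groups, 73.2% ± 26.1 (SD, n = 11 groups) of pairs had a peak, against 28.8% ± 14.1 of single promoters and 55.6% ± 22.0 of promoters with a divergent lncRNA. The excess of pairs over single promoters was 44.4 percentage points ± 12.6 and was positive in 34 of 34 libraries, from 12.3 to 55.9 points (two-sided exact sign-flip permutation test over the 11 group means, p = 0.000977, the smallest that 11 groups allow). Culture groups of the same genotype came from the same derived line, so the 11 group means are not independent, here and in the later sign-flip tests. Over lncRNA-divergent promoters, a comparison chosen after the data were seen, the excess was 17.6 points ± 4.74, again positive in 34 of 34 libraries (exact p = 0.000977).

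**Figure D1:**
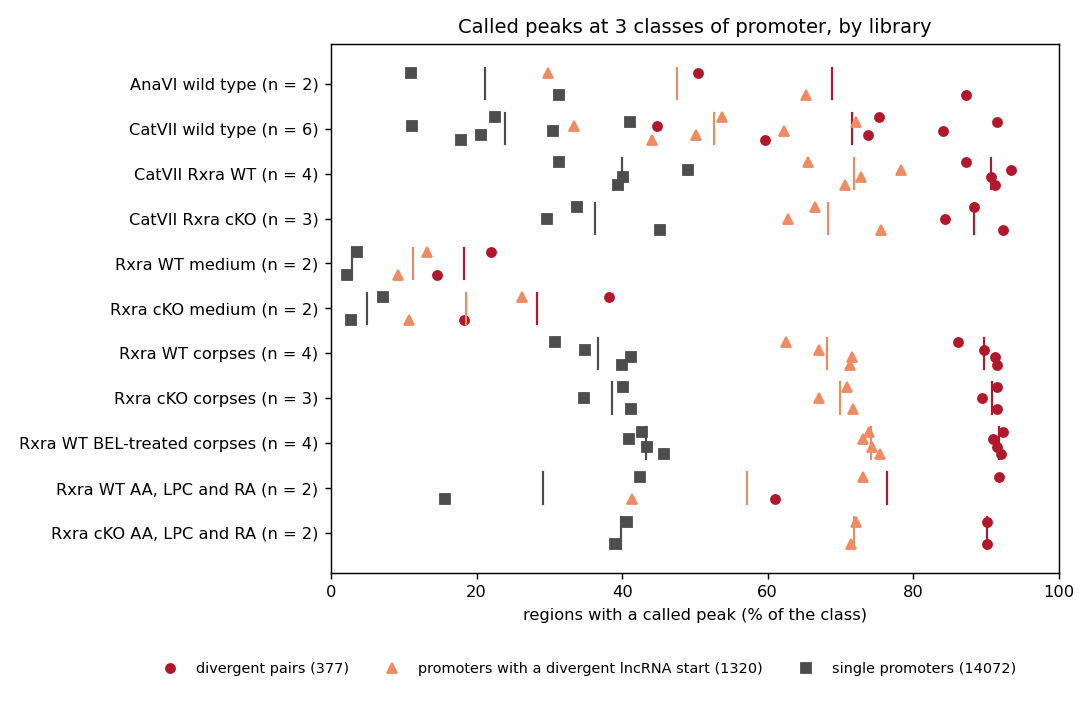
Percent of regions with a called peak in each of the 34 libraries (points) and the group mean (vertical line), for divergent pairs, promoters with a divergent lncRNA start and single promoters. In each library the pairs lie to the right of both other classes; in the 4 medium libraries all 3 classes lie below 40%.

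By group, the share of pairs with a peak was 90.7% ± 2.53 in CatVII Rxra WT (n = 4) and 88.3% ± 3.98 in the matching cKO libraries (n = 3). In culture it was 89.7% ± 2.44 in Rxra WT corpses (n = 4), 90.8% ± 1.23 in Rxra cKO corpses (n = 3) and 91.7% ± 0.588 in Rxra WT BEL-treated corpses (n = 4). The 2 libraries of Rxra cKO cells with AA, LPC and RA each had a peak at 340 pairs, and those of Rxra WT cells at 346 and 230. Wild type HFSCs spread more widely, with 190 and 329 pairs in AnaVI and a lowest, median and highest share of 44.8%, 74.5% and 91.5% in CatVII. In medium, 83 and 55 pairs had a peak in Rxra WT cells and 144 and 69 in Rxra cKO cells. These shares moved with the length of the list (Spearman rho = 0.889 over 34 libraries, which share their groups). With each list kept to its best 3976 peaks, the length of the shortest autosomal list, the excess was 27.2 points and still positive in 34 of 34 libraries.

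Where pairs had a peak, it also stood higher in its library. Peaks were ranked by −log10 p within each library, and the median percentile of the best peak was 83.5 ± 12.02 at pairs and 72.2 ± 9.38 at single promoters. The difference was 11.4 percentile points ± 3.96 (exact sign-flip permutation test, p = 0.000977) and was positive in 33 of 34 libraries, the exception being Rxra WT medium replicate 4 at −0.596. Peaks at pairs were also wider. Their median width was 566 bp ± 267, against 462 bp ± 220 at single promoters, a ratio of 1.23 ± 0.101 that ranged from 0.988 to 1.43 over libraries.

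Most pairs were open in most libraries, and a small set in none. Of the 377 pairs, 314 (83.3%) had a peak in at least 24 libraries, 41 in 1 to 23 and 22 (5.84%) in none, whereas 25.5% of single promoters had a peak in at least 24 libraries and 43.5% in none. Pairs had a median of 29 libraries, single promoters 2 and lncRNA-divergent promoters 26. Outside the medium, 98 pairs (26.0%) had a peak in all 30 libraries, against 3.65% of single promoters. The limit of 24 libraries was set after the distribution had been seen.

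**Figure D2:**
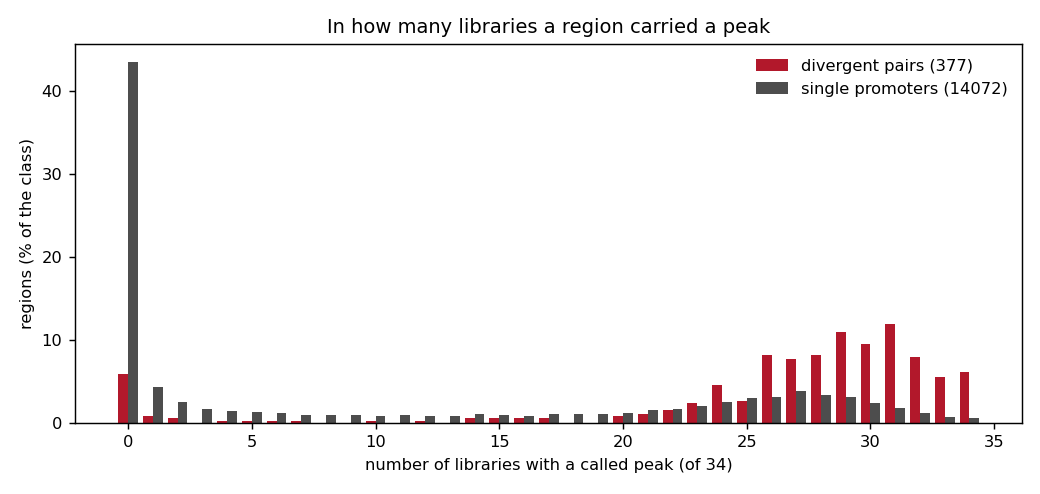
Percent of divergent pairs and of single promoters by the number of libraries, of 34, in which the region carried a called peak. Single promoters pile up at 0 libraries (43.5%), and pairs between 24 and 34 libraries (83.3%).

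The 23 pairs with a peak in all 34 libraries included some that hold a gene of DNA repair, protein folding or trafficking. Whether such genes were more frequent there than among all pairs was not tested. Of the 6 with the best mean rank, 5 are given here. They were Zfp654/Cggbp1 (Cggbp1 binds CGG repeats), Hspa14/Cdnf (an Hsp70-type chaperone and a neurotrophic factor), Eaf2/Golgb1 (Golgb1 is the Golgi protein giantin), Tbccd1/Dnajb11 (Dnajb11 is a co-chaperone of the endoplasmic reticulum) and Srgap2/Fam72a (Srgap2 is a GTPase-activating protein). Their best peak had a median percentile between 98.9 and 99.5. In its lowest library it stood at the percentile 92.2 for Zfp654/Cggbp1 and 38.3 for Tbccd1/Dnajb11, so a peak was called everywhere but did not rank equally in each list.

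Of 21 head-to-head pairs known from textbooks, 5 were members. Atm/Npat, 11 bp apart on chromosome 9, joins the kinase of the double-strand break response to a coactivator of histone genes. It had a peak in 34 of 34 libraries, at percentiles from 27.3 to 99.8 (median 98.6). Pdcd10/Serpini1, 52 bp apart, was also at 34 of 34 (43.4 to 99.5, median 96.9). Brca1/Nbr1, 181 bp apart, joins a homologous recombination gene to an autophagy receptor. Its region carried a peak in 31 libraries, missing in 2 CatVII wild type libraries and 1 Rxra WT medium library, but the summit of a peak lay inside the region in only 13. Mcm4/Prkdc, a replicative helicase subunit and the catalytic subunit of DNA-dependent protein kinase, had a peak in 30 libraries, missing in 3 of the 4 medium libraries and 1 AnaVI library. Psmb1/Tbp had one in 26, with none in the 4 medium libraries. By canonical starts 7 of the 21 were divergent within 1000 bp, among them Hspd1/Hspe1 (mitochondrial chaperonins, 31 libraries), Mrps12/Sars2 (30) and Trp53/Wrap53 (27).

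The study's own pathway, retinoid signalling, touched 2 pairs, through 2 of 32 listed genes (6.25%, beside 3.66% of all protein-coding genes). Rpl7/Rdh10, 669 bp apart on chromosome 1, joins a ribosomal protein gene to the retinol dehydrogenase that makes retinal. It had a peak in 33 of 34 libraries, all but 1 of the Rxra WT medium libraries, at percentiles from 33.5 to 93.6 (median 73.5). Slc39a7/Rxrb, on chromosome 17, joins a zinc transporter of the secretory pathway to the receptor RXRβ. It had a peak in 26 libraries. Of its 8 libraries without a peak, 4 were the medium libraries, 3 were CatVII wild type and 1 was AnaVI. In CatVII Rxra WT, CatVII Rxra cKO and both corpse groups each library had one, so presence at this pair did not differ between the Rxra genotypes. No gene of the lists for apoptotic cell clearance (49 genes), hair follicle stem cells and keratinocytes (38 genes), cell cycle (43), aminoacyl-tRNA synthetases (35) or lysosome, autophagy and phagosome maturation (74) belonged to a pair. With 3.66% of all protein-coding genes in pairs, lists of these sizes would hold few such genes, and their absence was not tested.

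Of the 12 gene lists, replication-dependent histones had the largest share of genes in pairs. Of 68 replication-dependent histone genes 27 (39.7%) stood in 14 pairs, against 3.66% of all protein-coding genes, and 13 of these pairs joined 2 histone genes. In windows of 500 bp to either side of the midpoint or start, 76.0% ± 31.2 of histone pairs carried a peak against 55.6% ± 29.8 of the 15 single histone promoters (group means, n = 11). All but H2bc1/H2ac1 had a peak in at least 24 libraries. H2bc1/H2ac1, whose products are testis histones, had one in 4. The histone genes are near-identical copies, so their values are uncertain.

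Of 119 listed DNA repair and replication genes, 19 (15.97%) were in 17 pairs, all with a peak in at least 24 libraries (81.7% ± 26.4 of windows, against 63.3% ± 28.3 of 42 single promoters of the list). Mitochondrial genes had 17 pairs, of which 16 were at 24 libraries or more (76.0% ± 34.5 against 56.6% ± 27.4), and proteasome and chaperonin genes 5 of 5 pairs (78.8% ± 33.8 against 56.5% ± 25.6). Among zinc finger genes 12 of 14 pairs were at 24 or more (77.7% ± 23.3 against 49.4% ± 22.7). Of 8 pairs with a cytosolic ribosomal protein gene, 5 were (65.4% ± 27.0 against 59.2% ± 31.3). Over all pairs the same share of windows was 72.6% ± 26.0, against 28.8% ± 14.1 of single promoters, so the single promoters of these lists were themselves open more often than single promoters in general. By genes, pairs held 17 of 203 mitochondrial (8.37%) and 5 of 62 proteasome and chaperonin genes (8.065%). They held 15 of 477 zinc finger (3.15%) and 8 of 72 cytosolic ribosomal protein genes (11.1%), beside 3.66% of all protein-coding genes.

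The pairs were rich in CpG. The ratio of observed to expected CpG in this window had a median of 0.749 at pairs, 0.3496 at single promoters and 0.732 at lncRNA-divergent promoters, and the median GC content was 58.4% at pairs and 51.8% at single promoters. Windows with a ratio of at least 0.6 and at least 50% GC made up 286 of the 377 pairs (75.9%), 4110 of the 14072 single promoters (29.2%) and 882 of the 1320 lncRNA-divergent promoters (66.8%). Within these CpG-rich windows, 79.1% ± 27.2 of pairs and 62.3% ± 28.5 of single promoters had a peak. The excess fell to 16.8 points ± 4.996 and remained positive in 34 of 34 libraries (exact sign-flip permutation test, p = 0.000977). Over CpG-rich lncRNA-divergent promoters it was 7.47 points ± 2.54, also positive in 34 of 34.

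**Figure D3:**
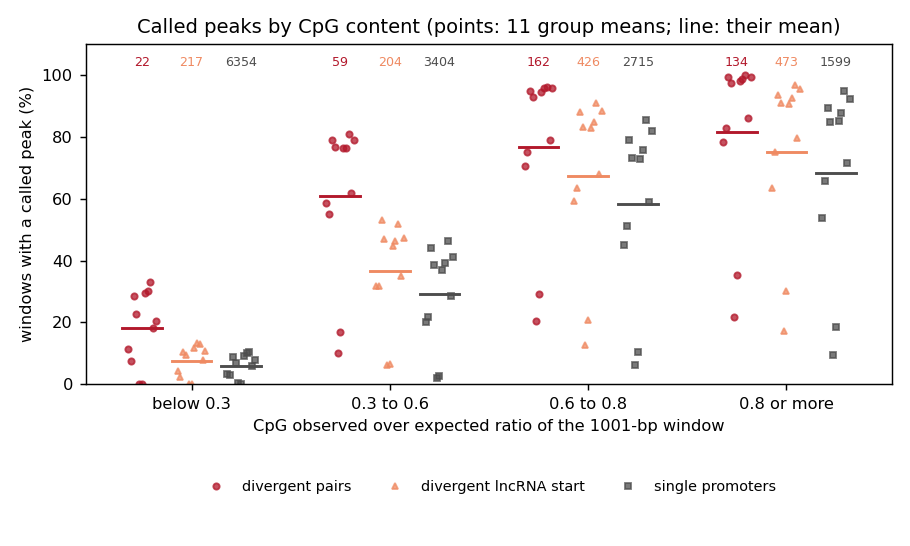
Percent of windows, 500 bp to either side of a midpoint or start, with a called peak in 4 bins of CpG ratio; points are the 11 group means, horizontal lines their mean, and the numbers above are windows in the bin. All 3 classes rise with CpG ratio, and pairs stand highest on average in each bin; the low points are the medium groups.

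Read across CpG content, the distance between the classes was largest in the middle. Below a ratio of 0.3, 18.3% ± 12.02 of 22 pairs and 6.04% ± 3.74 of 6354 single promoters had a peak, and pairs were higher in 26 of 34 libraries. Between 0.3 and 0.6 the shares were 61.0% ± 25.1 of 59 pairs and 29.2% ± 15.8 of single promoters, between 0.6 and 0.8 they were 76.8% ± 27.4 and 58.2% ± 27.7, and from 0.8 up 81.5% ± 27.4 and 68.4% ± 29.6. In the 3 upper bins pairs were higher in 34 of 34 libraries. Across single promoters the number of libraries with a peak rose with CpG ratio (Spearman rho = 0.732, 14072 promoters that share libraries). Across pairs the rank correlation was lower (rho = 0.321, 377 pairs). From the lowest to the highest bin, the share rose from 18.3% to 81.5% at pairs and from 6.04% to 68.4% at single promoters.

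Motif letters of pairs differed more from single promoters than from lncRNA-divergent promoters for some motifs. Windows of 200 bp to either side of the midpoint of a pair or of a single start were searched on both strands, and no motif contains another. The SP/KLF letters GGGCGG were in 70.0% of pairs, 36.5% of single promoters and 45.2% of all protein-coding promoters. The ETS letters CCGGAAG were in 25.2%, 8.25% and 11.8% of the same classes. The NF-Y letters CCAATCA were in 21.0%, 7.90% and 9.14%. NRF1, searched as GCGCATGCG, was in 5.84%, 1.51% and 2.20%, and BANP, searched as TCTCGCGA, in 6.10%, 0.675% and 1.32%. The cyclic AMP response element TGACGTCA was in 5.57%, 1.73% and 2.33%, and YY1, searched as AAGATGGCG, in 4.24%, 1.31% and 2.06%. The TATA box, searched as TATAAA, was in 7.96%, 17.5% and 14.8%. The AP-1 letters TGANTCA were in 5.57%, 9.74% and 8.47%, and the E-box CACGTG in 10.6%, 7.84% and 8.95%. Promoters with a divergent lncRNA had nearly the same share as pairs for SP/KLF (69.1%), the TATA box (7.73%) and AP-1 (5.23%) and a higher one for the E-box (12.5%). Their shares lay between those of pairs and single promoters for ETS (17.7%), NF-Y (14.8%), NRF1 (4.17%), BANP (2.65%), the cyclic AMP response element (3.86%) and YY1 (2.73%). Among CpG-rich windows the shares of pairs and single promoters were close for SP/KLF (76.2% and 77.2%) and the TATA box (6.99% and 6.86%) and further apart for NF-Y (22.0% and 9.42%), ETS (28.3% and 17.8%) and BANP (6.29% and 2%). For AP-1 (5.24% and 4.09%) and the E-box (10.8% and 13.5%) their direction was the reverse of that over all windows. These shares are descriptions without a test. Pairs with and without the NF-Y letters had a peak in a median of 30 and 28 libraries, and for ETS the medians were both 29.

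One peak usually spanned both starts. Of pairs with a peak, the strongest peak covered both starts in 73.1% ± 14.1 (range over libraries 23.7% to 91.4%, lowest in AnaVI replicate 1) and 1 start alone in 17.2% ± 7.29. Its summit lay between the starts in 37.3% ± 3.66, inside the minus-strand gene in 32.8% ± 2.34 and inside the plus-strand gene in 29.9% ± 2.65. The summit stood a median of 71.4 bp ± 10.9 from the midpoint of a pair and 98.7 bp ± 19.8 from a single start.

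These shares depended on the gap. Both starts lay under the strongest peak in 88.5% ± 10.6 of the pairs 1 to 50 bp apart, 79.4% ± 15.6 above 100 and up to 200 bp, 64.9% ± 22.4 above 200 and up to 400 bp and 16.3% ± 12.8 above 400 bp. The summit lay between the starts in 10.7% ± 4.04, 56.3% ± 9.13, 65.4% ± 5.50 and 57.7% ± 8.15 of the same bins. The share of pairs open at all followed the gap less closely. A fixed window 500 bp to either side of the midpoint had a peak in 73.8% ± 29.5 of pairs at 1 to 50 bp. The shares were 68.1% ± 24.7 above 50 and up to 100 bp and 76.9% ± 23.7 above 100 and up to 200 bp. They were 79.6% ± 25.7 above 200 and up to 400 bp and 63.9% ± 24.8 above 400 bp. Over 377 pairs the Spearman rho of gap and number of libraries was 0.0789. Of the 50 pairs above 400 bp, 23 were CpG-rich, and of the 127 pairs at 1 to 50 bp, 110 were. Among these CpG-rich pairs the shares were 77.6% ± 24.4 above 400 bp and 76.5% ± 30.01 at 1 to 50 bp. Just inside the limit of the definition, 41 pairs more than 500 bp apart had a peak in 65.5% ± 26.8 of regions, and just outside it 28 pairs more than 1000 and up to 1500 bp apart in 52.7% ± 23.5, with regions drawn in the same way.

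**Figure D4:**
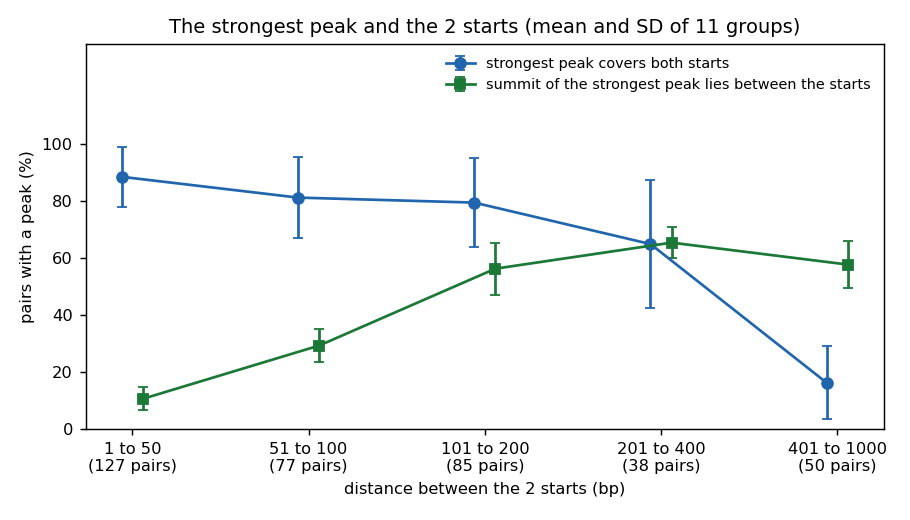
Percent of divergent pairs with a peak whose strongest peak covers both starts, or has its summit between them, by the distance between the starts; points are means and bars SDs of the 11 group means. Coverage of both starts falls from 88.5% to 16.3% as the gap widens, while the share of summits between the starts levels off above 100 bp.

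The extremes of the gap were both open. Rps28/Ndufa7, a ribosomal protein and a subunit of respiratory complex I, start 1 bp apart on chromosome 17 and had a peak in 27 libraries (percentiles 20.2 to 94.8, median 80.0). Klhl17/Noc2l, 984 bp apart on chromosome 4, had one in 25 (16.8 to 94.2, median 78.4). Neither had a peak in a medium library.

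The 22 pairs with no peak in any library were poor in CpG, 19 of them outside the CpG-rich class. In genome order the first 6 were Alyreffm1/Dnaaf6rt, Nmur1/Tex44, Cysrt1/Rnf208, Ctnnd1/Btbd18, Patl2/Terb2 and Actl7b/Actl7a. Ctnnd1 encodes the catenin p120, Terb2 a meiotic telomere protein, and Actl7a and Actl7b actin-like proteins of sperm. Others, singled out after their values were seen, were Dgcr2/Tssk2, Rnf151/Rps2 and Zfp558/Mbd3l1, in which Tssk2 is a testis kinase, and Nr2e1/Ostm1, in which Nr2e1 is a nuclear receptor of neural stem cells. For 20 of the 44 genes in these pairs the canonical transcript starts more than 1000 bp from the outermost annotated start, against 12.7% of the 628 genes in pairs open in at least 24 libraries. At 9 of those 20 canonical starts, also singled out after their values were seen, a peak was called in at least 24 libraries, among them Trim28 (33), Ccnt1 (31), Angel1 (30), Dgcr2 (30), Ostm1 (28), Rps2 (28) and Ctnnd1 (27). In pairs open in at least 24 libraries the same held for 42 of the 80 genes with such a distant canonical start, so this was not particular to the pairs with no peak. When pairs were instead built from canonical starts, 523 pairs resulted, 253 of them shared with the 377. A peak was called at 77.1% ± 27.8 of them against 31.8% ± 15.5 of single promoters, and 13 (2.49%) had none.

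The comparisons between groups asked whether the excess itself moved with the hair cycle, with Rxra or with corpses. Since these shares moved with list length, the lists of each comparison were kept to the same number of best peaks. None of the 5 differences passed an adjusted p of 0.05 in exact permutation tests of the library labels with Benjamini-Hochberg adjustment over the 5, and 1 had an unadjusted p below it. The smallest permutation p allowed was 0.0357 for the stages, 0.0667 for corpses against medium and 0.0286 for the other comparisons. After adjustment no comparison could pass 0.05 by itself, so this does not show that there was no difference. The comparisons of corpses share the Rxra WT corpses libraries. In each comparison the excess was positive in all libraries of both groups.

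Between the stages, at 8046 peaks per list, pairs had a peak in 56.3% ± 7.21 of cases in CatVII (n = 6) and 48.3% ± 11.3 in AnaVI (n = 2), and single promoters in 13.9% ± 1.91 and 8.94% ± 1.82. The excess was 42.4 points ± 5.53 against 39.3 ± 9.43, a difference of 3.08 (exact permutation p = 0.643, adjusted 0.821). The 2 AnaVI libraries, at 32.7 and 46.0 points, spanned nearly the whole CatVII range of 33.7 to 47.8, and the difference was −3.59 without AnaVI replicate 1. A peak in every CatVII and in no AnaVI library was found at 13 of the 175 pairs that could show it (7.43%), beside 16.4% of all promoter regions that could, pairs and single promoters together. The 5 strongest were Ddias/Prcp, Tmem135/Fzd4 (Fzd4 is a Wnt receptor), Apaf1/Ikbip (Apaf1 forms the apoptosome), Gm49909/Myom1 and Alg2/Sec61b (protein glycosylation and translocation). The reverse was found at 3 of 266 pairs (1.13%, beside 1.59% of all promoter regions), Pfdn6/Wdr46, Sarm1/Vtn and Rps28/Ndufa7. With all called peaks both counts were 0. At 8046 peaks per list, the first was 40 without AnaVI replicate 2 and the second was 10 without AnaVI replicate 1.

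Between the genotypes in vivo, at 40458 peaks per list, the excess was 54.6 points ± 0.148 (n = 3) without Rxra and 53.8 ± 2.43 (n = 4) with it, a difference of 0.879 (exact permutation p = 0.657, adjusted 0.821). Pairs had a peak in 86.6% ± 4.51 of cases without it and 88.7% ± 1.84 with it, and the groups overlapped. Without the 4 libraries whose stored names differ from their titles the difference was −0.530, with CatVII Rxra WT replicate 1 as the only WT library left. Without CatVII Rxra WT replicate 2 alone it was −0.166. No pair of 339 that could show it had a peak in every cKO and in no WT library (beside 0.0906% of all promoter regions), and none of 336 the reverse (beside 0.484%). Leaving out CatVII Rxra cKO replicate 1 gave 1 pair in the first direction, and leaving out CatVII Rxra WT replicate 1 gave 1 in the second.

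In culture with corpses, at 70212 peaks per list, the genotypes stood at 54.9 points ± 0.305 (Rxra cKO, n = 3) and 54.7 ± 0.911 (Rxra WT, n = 4), a difference of 0.197 (exact permutation p = 0.886, adjusted 0.886). It was −0.241 without Rxra WT corpses replicate 3. Pairs had a peak in 89.2% ± 0.153 of cases in Rxra cKO and 89.2% ± 2.07 in Rxra WT. None of 341 pairs had a peak in every cKO and in no WT library (beside 0.7% of all promoter regions) and none of 340 the reverse (beside 0.578%), with 1 in the reverse direction when Rxra cKO corpses replicate 1 or replicate 2 was left out. At 40458 peaks per list the genotype difference was 0.879 points in vivo and −0.0879 with corpses, and the 2 differed by 0.967 (exact permutation within settings, p = 0.592).

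Between corpses and medium in Rxra WT cells, the lists had to be kept to 4683 peaks, the length of the shorter medium list, which leaves little of the corpse lists. The excess was 21.3 points ± 4.02 with corpses (n = 4) and 14.8 ± 5.16 in medium (n = 2), a difference of 6.51 (exact permutation p = 0.2, adjusted 0.5; the smallest p this design allows is 0.0667). A peak in every corpse library and in neither medium library was found at 18 of 76 pairs (23.7%, beside 35.4% of all promoter regions). The 5 strongest were Ddx24/Ifi27 (an RNA helicase and an interferon-induced gene), Hscb/Chek2 (an iron-sulphur cluster co-chaperone and a checkpoint kinase), Ccdc146/Fam185a, Tmed5/Ccdc18 and Xrcc3/Zfyve21 (Xrcc3 acts in homologous recombination). Each of them had a peak in both AnaVI libraries and in all libraries of CatVII Rxra WT. With all called peaks, Ddx24/Ifi27, Hscb/Chek2, Tmed5/Ccdc18 and Xrcc3/Zfyve21 also had one in 1 of the 2 Rxra cKO medium libraries, and Ccdc146/Fam185a in none. The reverse was found at 3 of 126 pairs (2.38%, beside 1.99% of all promoter regions), Gm29427/Yod1, Jrkl/Ccdc82 and Acp1/Sh3yl1, all of which also had a peak in all 4 corpse libraries when all called peaks were used. With all called peaks the difference in excess was 37.5 points and the counts were 217 and 0. At 4683 peaks per list, where the counts were 18 and 3, they were 36 and 8 without Rxra WT medium replicate 3. The second count at this length was 18 without Rxra WT medium replicate 4 and 9 without Rxra WT corpses replicate 3.

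Between BEL-treated and untreated corpses, at 62278 peaks per list, the excess was lower with BEL in 4 of 4 libraries, with no overlap (50 to 50.7 points against 54.2 to 56.3). The difference was −4.98 points (exact permutation p = 0.0286, the smallest that 4 against 4 libraries allow; adjusted 0.143). Pairs had a peak in 91.3% ± 0.334 of cases with BEL and 88.6% ± 2.05 without, and single promoters in 40.9% ± 0.272 and 33.2% ± 2.84, so both classes were higher with BEL and single promoters by more. Pairs, already at 88.6% without BEL, had less room to rise. In CpG-rich windows, over all called peaks, pairs stood at 97.8% with BEL and 96.1% without, and single promoters at 89.5% and 77.7%. The part of this upper limit in the difference was not tested. The lists also differed in the shape of their peaks. Over all called peaks, the best peak at single promoters had a median width of 910 bp with BEL and 335 bp without. At pairs these widths were 1087 and 442 bp. Of single promoters with a peak, 1.09% had 2 or more with BEL and 14.3% without. The part of peak width and splitting in the difference was not tested. With only the best peaks, at a list length of 50% of 62278, the difference in excess was 1.19 points in the other direction, and in CpG-rich windows it was −11.3. A peak in every BEL library and in no untreated one was found at 2 of 343 pairs (0.583%, beside 5.41% of all promoter regions), Ddx25/Pus3 and Ppp1r3d/Fam217b. The reverse was found at 0 of 343 pairs (beside 0.0170%). Pus3 encodes a tRNA pseudouridine synthase and Ppp1r3d a glycogen-targeting phosphatase subunit. Ddx25/Pus3 had a peak in 6 of 34 libraries in all, 4 of them BEL-treated, 1 CatVII wild type and 1 CatVII Rxra WT, and its summit lay inside the region in 2. Ppp1r3d/Fam217b had a peak in 22, and with all called peaks in 3 of the 4 untreated corpse libraries too.

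**Figure D5:**
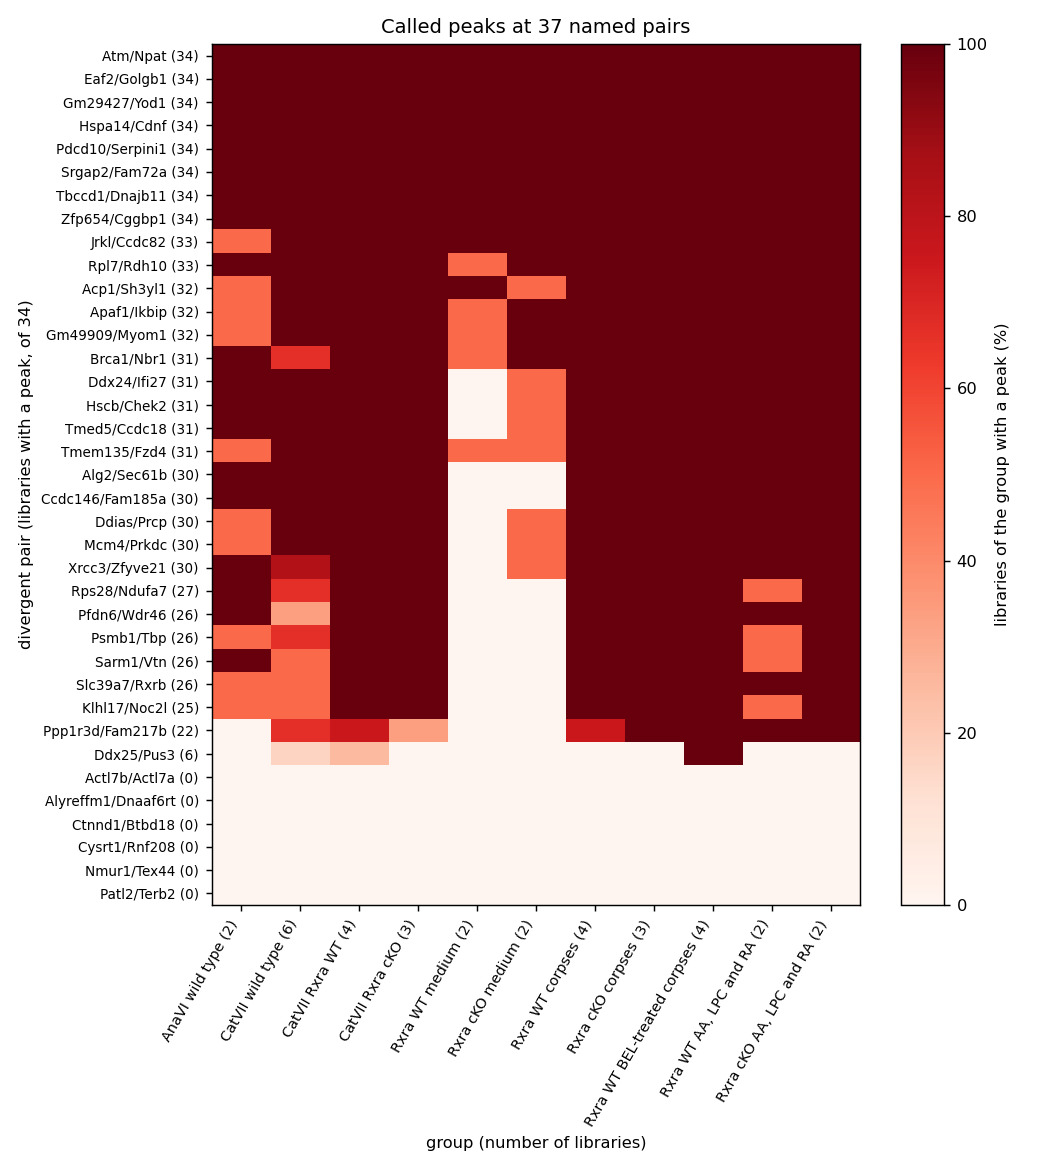
Percent of the libraries of each group with a called peak at 37 of the 38 named pairs, using all called peaks; numbers in brackets are libraries. Pairs at the top are open in all groups, those in the middle lose their peak in the medium groups and in part of the wild type groups, and 6 at the bottom have no peak in any library.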

How the data were processed

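HFSC libraries had been prepared by ATAC-seq and sequenced as paired ends. According to the study's methods and the submitters' processing notes, reads were aligned to mm39 with BWA 0.7.18, handled with SAMtools 1.17 (1.9 is also named) and freed of duplicates, and the authors called peaks per library with MACS3 3.0.0 in paired-end mode without a control; deepTools 2.0.0 is also named. The deposited lists give each peak's position, summit, fold enrichment over local background (a ratio) and −log10 p and −log10 q as the authors' caller wrote them, with a lowest −log10 q of 1.3. The lists hold no read counts, so sequencing depth is unknown and list length, 3976 to 126373 autosomal peaks, stands in for it, and a missing peak can be a shallow library.

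A region was counted as open where a peak overlapped it. Gene starts came from the GENCODE vM39 annotation and sequences from the GRCm39 assembly. Shares were averaged over libraries of a group and then over 11 groups, and tested with a two-sided exact sign-flip permutation test over groups. Group comparisons used lists cut to equal length by −log10 p and an exact permutation test over libraries. In group-specific counts, a region could be called if it had a peak in at least as many of the compared libraries as the group required to have it holds, and the background is the share called of all such pairs and single promoters. Named pairs were those known from textbooks, those holding a retinoid, apoptotic clearance or HFSC gene, up to 5 group-specific pairs per direction, 6 pairs open in no library in genome order and 6 open in all by rank, and the shortest and longest gap; 1 of these is not reported here. The members, lists and tests were chosen with earlier results of these data known. Alternatives covered list length, window, summit position, −log10 q, CpG content, chemoreceptor genes, gene starts, left-out libraries and a replicate block. Same-numbered libraries did not deviate together (correlations from −0.239 to 0.111), so numbers were not taken to pair them. Scripts used Python 3.11.15, pandas 2.3.3, NumPy 2.4.6 and SciPy 1.17.1 and were tested on simulated data.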

Additional observations from a re-analysis of the deposited data

Results flagged for a closer look

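At 46.2%, the share of summits between the 2 starts in CatVII Rxra WT replicate 1 lay far from the other 3 libraries of its group. Such a gap was looked for in 20 sets of values, from groups of 4 or 6 libraries, and chance flags about 1 in 20.

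Chromosome X was outside the comparisons. Of its 11 divergent pairs, a median of 36.4% carried a peak per library (0 to 45.5%), against a median of 24.9% of its 818 single promoters (0.611 to 35.8%), and pairs were higher in 31 of 34 libraries. This was listed because a signal appeared in data that the comparisons had not used, and it was not tested.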

How the results depend on the processing

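The excess of pairs kept its direction and its exact permutation p under 0.05 in all 14 alternatives and with each library left out (43.6 to 45.1 points), and so did the peak rank in 7 alternatives and with each library left out (10.9 to 11.8). Of 41 alternatives to the 5 differences between groups, 35 kept the direction and none passed the threshold, which no comparison could pass by itself. The cause of the 6 reversals was not tested. With all called peaks the difference was −0.0712 for CatVII against AnaVI and −0.793 for Rxra cKO against Rxra WT with corpses. In CpG-rich windows CatVII against AnaVI gave −2.29. With lists cut to 50% of that length the genotypes in vivo gave −2.60 and BEL 1.19. Of those that kept the direction, corpses against medium with all called peaks (37.5) and BEL in CpG-rich windows (−11.3) moved most in points. Without the libraries stored under other names, an alternative added after the data were seen, the genotypes in vivo gave −0.530, with no test. It left CatVII Rxra WT replicate 1 as the only WT library. Leaving out 1 library at a time gave −3.59 to 9.75 for CatVII against AnaVI, −0.166 to 1.66 for the genotypes in vivo, 2.85 to 10.2 for corpses against medium, −0.241 to 0.453 for the genotypes with corpses and −5.39 to −4.70 for BEL. The replicate block gave 6.44, 1.66, 8.58, 0.251 and −4.98 in the same order. It rested on 2, 3, 2, 3 and 4 shared replicate numbers. These are too few for its sign-flip test to pass 0.05, so it could change no call.

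Counts of group-specific pairs with all called peaks were 0 for CatVII over AnaVI, 0 for AnaVI over CatVII, 217 for corpses over medium and 0 for medium over corpses. At the equal list lengths of the comparisons, with 1 library left out, the counts ranged from 13 to 40, 3 to 10, 18 to 36 and 3 to 18 in that order. They ranged from 0 to 1 in both directions between genotypes in vivo and for Rxra WT over Rxra cKO with corpses, and from 2 to 3 for BEL over corpses. Of 114 recounts of named pairs, 111 stayed within 1.5 times. Where the summit had to lie in the region, Brca1/Nbr1 fell to 13 libraries, Ddias/Prcp to 15 and Ddx25/Pus3 to 2. Without read counts, absence of a peak in a short list cannot be told apart from low depth.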
